A study of Mus musculus with 4 samples.

Results

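The 9 genes described here serve lymphocyte homing, the movement of T cells between blood, lymph and tissue: S1pr1, S1pr4, Cd69, Cd44, Selplg, Fut7, Gcnt1, St3gal4 and Gpr183. They were chosen by symbol and matched by gene ID to 9 of the 50600 rows of each gene table. RNA was sequenced in 4 libraries of regulatory T cells, a CD4+ lineage that holds immune responses in check, from mice of strain C57BL/6NJ. The libraries are biological replicates 1 to 4 of a single group of primary cells, with a protocol for differentiating CD4+ T cells linked, sex not collected and age unknown. The output names recorded in the tables carry the words activated and 24h. There is no treated, mutant or other-cell arm, so the values below are levels and their spread over 4 libraries.

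Sphingosine 1-phosphate (S1P) is a lipid that is abundant in blood and lymph, and T cells leave lymphoid organs by sensing it through the receptor encoded by S1pr1. CD69, induced on activated lymphocytes, binds that receptor and takes it from the cell surface. Selectins are adhesion proteins of vessel walls, platelets and leukocytes that let cells roll along a vessel, and they bind sugars that glycosyltransferases build onto carrier proteins such as PSGL-1, the product of Selplg. GPR183 senses oxysterols, oxidised forms of cholesterol that guide lymphocytes within lymphoid tissue.

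The libraries held 38590127 to 93035969 fragments assigned to genes. All 5 regulatory T cell markers examined, Foxp3, Il2ra, Ctla4, Tnfrsf18 and Ikzf4, and all 5 T cell markers had mean levels of at least 10 TPM (a transcript level scaled for gene length and library total). Of 38 markers of other cell types, 6 had a mean of at least 1 TPM, 1 of at least 10, and 12 had no fragment in any library, with the sum over the 38 at 28.4 to 39.7 TPM per library. That 1 was Cd8b1, at 21.8 ± 4.19 TPM (SD, n = 4), while the other CD8 T cell marker, Cd8a, had 1.11 ± 0.451 TPM. The libraries differed in sex-linked RNA although their labels give all 4 the same donor identifier: Xist stood at 100.4, 88.7, 0.716 and 0.603 TPM in replicates 1 to 4, and the Y-linked gene Ddx3y at 0.159, 0.101, 46.1 and 40.6 TPM. Replicate 1 also stood apart in non-coding RNA, with 88.2% of its TPM on protein-coding genes, against 95.6 to 96.6% in the other 3, and since TPM sum to the same total in each library, this lowers the TPM of its protein-coding genes. The labels call the libraries biological replicates but do not say which came from separate animals or cultures. By sex-linked RNA, replicates 1 and 2 held female cells and replicates 3 and 4 male cells, so not all came from a single animal. P-values therefore measure the spread between these libraries alone, and beyond the sex-linked split it may be technical.

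Most of the 9 homing genes had a mean of at least 10 TPM, and 1 was near silent. Mean levels of 8 genes lay between 13.4 and 274 TPM, while Gcnt1 averaged 0.471 TPM. The median of the 9 means was 47.5 TPM, beside 0.520 TPM over all 21764 protein-coding genes and 31.0 TPM over the 10383 of these with a mean of at least 1 TPM. S1pr4, Fut7, S1pr1 and Gcnt1 lay below that last median. By mean TPM the order was Selplg, Cd44, St3gal4, Gpr183, Cd69, S1pr4, Fut7, S1pr1 and Gcnt1. Neighbours in this order were compared within each library, and a pair was taken to differ where all 4 log2 TPM differences had the same sign and their mean exceeded 2 SD. By that rule 6 of the 8 neighbouring pairs differed beyond their spread. The order came from these same libraries, which largely sets the sign of each difference, so the count describes spacing and does not test the order. The pair St3gal4 and Gpr183 did not, with a log2 TPM difference of 0.14 ± 0.14 (SD, n = 4) that was positive in 3 of 4 libraries. Nor did Fut7 and S1pr1, at 0.43 ± 0.26. In bulk RNA, fewer cells expressing a gene and less RNA per cell cannot be told apart.

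**Figure D1:**
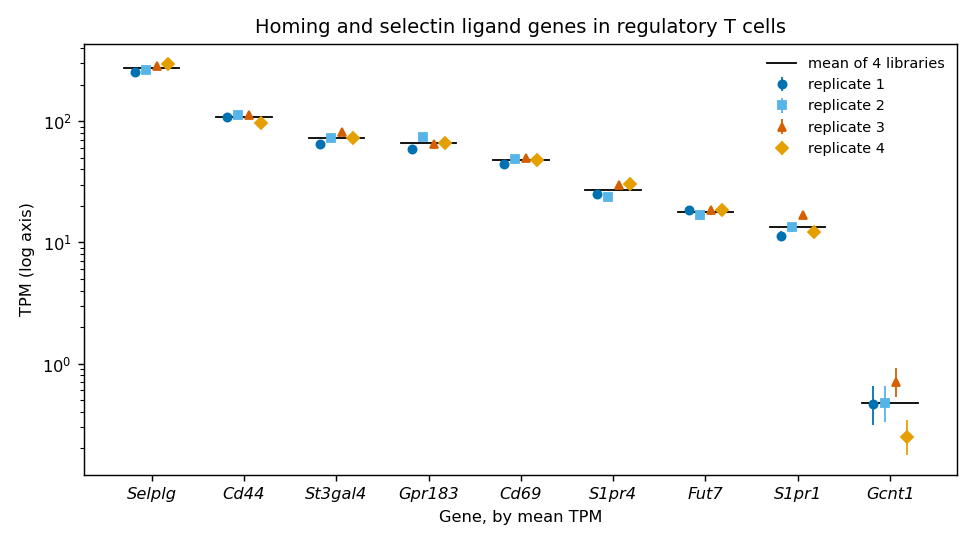
TPM (log axis) of the 9 homing genes in each of the 4 regulatory T cell libraries. Points are libraries, black bars are the means of 4, and vertical lines are 95% exact intervals for counting error, visible chiefly for Gcnt1, whose mean of 0.471 TPM lies far below the 13.4 TPM of S1pr1.

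The first question was how the genes of S1P sensing stood to each other. S1pr4, a lymphocyte S1P receptor, was higher than S1pr1, the receptor for exit from lymphoid organs, in all 4 libraries, and Cd69 was higher than both. S1pr1 (ENSMUSG00000045092.8; mm10 chromosome 3, 115710433 to 115715072, minus strand) reached 11.3, 13.3, 16.8 and 12.2 TPM in replicates 1 to 4. It was highest in replicate 3, where its 14.9 CPM (fragments scaled to library total alone, 95% exact interval 13.8 to 16.0 for counting error) lay above the interval of every other library. The other 3 libraries had 10.8 (9.79 to 11.9), 12.2 (11.2 to 13.2) and 11.05 (10.4 to 11.7) CPM. S1pr4 (ENSMUSG00000044199.6; chromosome 10, 81497747 to 81500132, minus strand, a single exon) had 25.2, 23.6, 29.7 and 30.3 TPM. Its replicates 1 and 2, the libraries with Xist RNA, were lower than its replicates 3 and 4, those with Ddx3y RNA. So were those of 28.6% of the 10095 protein-coding genes with at least 1 TPM in every library. The part of this split in any result was not tested. Cd69 (ENSMUSG00000030156.5; chromosome 6, 129267325 to 129275436, minus strand) had 44.3, 48.7, 49.4 and 47.7 TPM, with the 4 libraries close together.

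Within libraries, S1pr1 minus Cd69 was −1.88, −1.79, −1.50 and −1.88 on the log2(TPM + 1) scale. The mean difference was −1.76 ± 0.18 (SD, n = 4), below 0 in 4 of 4 libraries. S1pr1 minus S1pr4 was −1.09, −0.78, −0.79 and −1.24, with a mean of −0.97 ± 0.23, again below 0 in 4 of 4. Without length scaling, on the log2(CPM + 1) scale, the mean differences were −2.83 and −0.63. In a two-sided permutation test that flips signs exactly, 2 of 16 patterns reached each value, p = 0.13, which is the smallest p that 4 libraries allow, so these differences are given by their size and spread. All 5 S1P receptor genes were measured. S1pr4 held 59.4 ± 2.92% of their summed TPM and S1pr1 29.3 ± 3.60%, while S1pr2 held 6.09 ± 0.602% and S1pr3 5.20 ± 1.49%. S1pr5 had no fragment in any library. Since up to 3 fragments can go unseen in a count of 0, its level could still reach 0.0435 to 0.0992 TPM depending on the library.

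The list of S1P pathway genes, with Cd69, S1pr1 and S1pr4 among its 19 members, had 13 at a mean of at least 1 TPM and 10 at 10 or more, with a median of 13.4 TPM. Of all 21764 protein-coding genes, 10383 reached 1 TPM and 7868 reached 10, the background for this list and the later ones. Signalling genes downstream of the receptors led the S1P list. Gnai2, the inhibitory G protein subunit that couples to S1P receptors, had 421 ± 21.4 TPM (SD, n = 4). Grk2, a kinase that desensitises G protein-coupled receptors, had 396 ± 30.4 TPM. Foxo1, a transcription factor that sustains Klf2 in resting T cells, had 65.3 ± 2.60 TPM, and Sphk2, a kinase that makes S1P, 48.7 ± 4.94 TPM. Klf2, a transcription factor known to drive S1pr1, had 44.4 ± 3.10 TPM and is named after its value was seen. Sgpp2, which removes the phosphate from S1P, had no fragment in any library. Its relative Sgpp1 had 38.8 ± 4.49 TPM, and Sgpl1, the S1P lyase gene, 37.6 ± 2.47 TPM. Both are named after their values were seen. The transporters that export S1P from cells were low, with Mfsd2b at 0.741 ± 0.214 TPM and Spns2 at 14 fragments in all, 12 of them in replicate 2 and the other 2 in replicate 4. These transporters too are named after their values were seen.

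Among carriers of selectin ligands, Selplg and Spn were the most abundant and Cd44 followed. Selplg, which encodes PSGL-1, the main ligand of P-selectin on leukocytes, is at chromosome 5, 113818536 to 113832644, minus strand (ENSMUSG00000048163.13). It had 253, 262, 285 and 296 TPM in replicates 1 to 4, higher than 94.0% of the 10383 protein-coding genes with a mean of at least 1 TPM. Cd44, the hyaluronan receptor and a marker of activated and memory T cells, which can also carry selectin ligands, is at chromosome 2, 102811141 to 102901665, minus strand (ENSMUSG00000005087.17). It had 108, 113, 112 and 96.4 TPM. Replicate 4 was the highest library for Selplg and the lowest for Cd44. Selplg, like S1pr4, was lower in both libraries with Xist RNA than in both others. The same held for 28.6% of the 10095 protein-coding genes with at least 1 TPM in every library. The counts cover the union of all Cd44 exons and do not separate its spliced forms. Selplg minus Cd44 was 1.22, 1.20, 1.34 and 1.61 on the log2(TPM + 1) scale, with a mean of 1.34 ± 0.19 (SD, n = 4), above 0 in 4 of 4 libraries (exact sign-flip permutation p = 0.13, the smallest possible). Without length scaling, the mean difference was 0.68 on the log2(CPM + 1) scale.

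Of the summed TPM of 5 carrier genes, Selplg held 33.1 ± 1.30% and Cd44 13.02 ± 1.24%. Spn, which encodes CD43, a mucin of leukocytes that can carry E-selectin ligands, held 37.0 ± 0.712%. Glg1, an E-selectin ligand described on myeloid cells, held 8.50 ± 0.259%, and Cd24a, a small mucin-like P-selectin ligand, 8.43 ± 1.07%. In TPM these were 306 ± 20.98 for Spn, 70.4 ± 5.56 for Glg1 and 69.9 ± 10.4 for Cd24a. Of the 12 selectin and carrier genes listed, 6 had a mean of at least 1 TPM and 5 of at least 10, with a median of 3.19 TPM. These counts stand beside 10383 and 7868 of all 21764 protein-coding genes. Cd34, Emcn and Glycam1, carriers made by vessel walls, had no fragment in any library. The endothelial selectin gene Sele had 3 fragments, all in replicate 1. Of the endothelial markers, Vwf and Kdr had none while Pecam1, which T cells can also express, had 4.93 ± 0.366 TPM. Sele and Pecam1 are named after their values were seen.

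CD44 binds hyaluronan outside the cell and linker proteins of the actin skeleton inside it. The linker genes were the most abundant of those listed around it. Of 14 genes listed for CD44 and hyaluronan, 8 had a mean of at least 1 TPM and 7 of at least 10, with a median of 14.6 TPM. Over all 21764 protein-coding genes, 10383 and 7868 reached these levels. The linkers Msn, Ezr and Rdx, which encode moesin, ezrin and radixin, had 485 ± 36.4, 359.9 ± 28.1 and 198 ± 17.0 TPM (SD, n = 4). Adam10, a protease that can shed CD44, had 106 ± 8.64 TPM, close to Cd44 itself. The hyaluronan synthase genes Has1 and Has2 had no fragment in any library, and neither did the hyaluronan receptor genes Lyve1 and Stab2. The third synthase gene, Has3, had 44 fragments over the 4 libraries. Hmmr, which encodes a hyaluronan-binding protein of the mitotic spindle, had 56.7 ± 7.51 TPM, and Hyal2, a hyaluronidase gene, 27.7 ± 2.13 TPM. These last 3 genes are named after their values were seen.

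**Figure D2:**
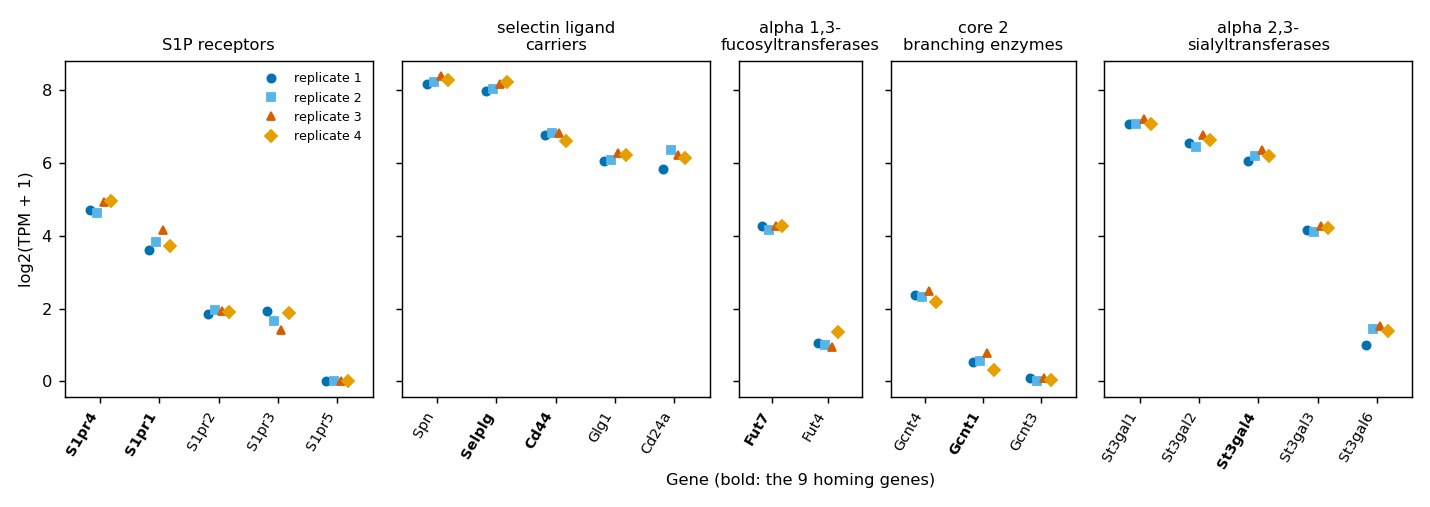
Level of each gene, as log2(TPM + 1), in 5 gene families, with the homing genes described here in bold and 1 point per library. S1pr4 lies above S1pr1 and Fut7 above Fut4 in all 4 libraries, whereas Gcnt1 lies below Gcnt4 and St3gal4 below St3gal1 and St3gal2.

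The enzymes that build selectin ligands stood at very different levels. St3gal4 and Fut7 were expressed in every library, and Gcnt1 was low in all 4. FUT7 adds the fucose, and ST3GAL4 is 1 of the enzymes that add the sialic acid. GCNT1 makes the core 2 branch on PSGL-1 that carries the sugar bound by P-selectin. Promoter windows of these 3 genes are given because they are the 3 enzyme genes among the 9 and their mean levels run from 0.471 to 72.7 TPM. Each runs from 250 bases before to 50 bases after a RefSeq start site (GRCm38.p6, 5′ to 3′ on the gene's strand). Those of Fut7 and Gcnt1 start within 25 bases of the 5′ end of the counted gene, and that of St3gal4 starts 2404 bases inside it. They lie at chr2:25422992-25423291 on the plus strand for Fut7, chr19:17356618-17356917 on the minus strand for Gcnt1, and chr9:35116815-35117114 on the minus strand for St3gal4. Capitals mark CACCC or its complement GGGTG, a box bound by KLF factors.
Fut7: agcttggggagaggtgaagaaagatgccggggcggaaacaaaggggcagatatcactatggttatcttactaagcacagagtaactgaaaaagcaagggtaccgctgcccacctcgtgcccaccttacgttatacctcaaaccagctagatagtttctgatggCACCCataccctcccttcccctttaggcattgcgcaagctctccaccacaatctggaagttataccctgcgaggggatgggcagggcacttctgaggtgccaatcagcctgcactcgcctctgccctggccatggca
Gcnt1: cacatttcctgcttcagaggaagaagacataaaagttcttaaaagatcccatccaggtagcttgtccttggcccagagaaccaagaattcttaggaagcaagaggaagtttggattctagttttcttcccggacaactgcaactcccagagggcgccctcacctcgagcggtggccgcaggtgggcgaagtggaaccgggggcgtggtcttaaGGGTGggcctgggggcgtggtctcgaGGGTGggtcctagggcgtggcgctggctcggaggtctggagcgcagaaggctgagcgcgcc
St3gal4: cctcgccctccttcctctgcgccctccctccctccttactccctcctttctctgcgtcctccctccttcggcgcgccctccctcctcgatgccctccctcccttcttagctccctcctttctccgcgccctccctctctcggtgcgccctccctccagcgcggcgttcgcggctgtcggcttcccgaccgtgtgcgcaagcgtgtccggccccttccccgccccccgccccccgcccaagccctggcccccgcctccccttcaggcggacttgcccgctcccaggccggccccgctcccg

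The Gcnt1 window printed holds 2 such boxes, the Fut7 window 1 and the St3gal4 window none, and 57.5% of all 32851 RefSeq windows hold at least 1 on either strand. The 3 windows differ in base composition. The St3gal4 window is 74.0% G or C with an observed over expected CpG ratio of 0.978, the Gcnt1 window 58.7% with 0.641 and the Fut7 window 54.0% with 0.367, beside medians of 52.7% and 0.384 over all windows. RefSeq start sites farther inside or outside the counted genes give other values. A second Fut7 window has a CpG ratio of 0.0433, and the 2 further Gcnt1 windows have 0.164, at the release 21 5′ end, and 0.150, with 1 box in each of these 3. In all, 6 of the 9 genes matched a RefSeq window, with 9 windows among them. None of the 9 holds TGANTCA (an AP-1 site), GTAAACA (a FOXO site) or TCACACC (part of a T-box site) on either strand, and these occur in 7.81%, 3.65% and 3.98% of all windows. A match is a string of letters in this window and says nothing of binding.

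St3gal4 (ENSMUSG00000032038.7; chromosome 9, 35046576 to 35119268, minus strand) reached 65.0, 72.6, 80.8 and 72.6 TPM in the 4 libraries. Replicate 1 was its lowest library and replicate 3 its highest. The non-coding gene 4930581F22Rik overlaps 14.1% of its exon bases on the other strand. That gene had 1.36 TPM, and the counting used strand. Fut7 (ENSMUSG00000036587.13; chromosome 2, 25423267 to 25426374, plus strand) had 18.4, 16.7, 18.4 and 18.3 TPM, so that 3 libraries nearly coincided and replicate 2 was lower. Gcnt1 (ENSMUSG00000038843.17; chromosome 19, 17326141 to 17356667, minus strand) had 31, 35, 55 and 38 fragments, which is 0.460, 0.473, 0.703 and 0.247 TPM. Its highest library, replicate 3, had 1.14 CPM (95% exact interval 0.858 to 1.48) and its lowest, replicate 4, 0.408 CPM (0.289 to 0.561), so these 2 intervals did not overlap. GENCODE mouse release 21 gives the gene a 5′ end at 17372844, beyond the end counted here, and reads from exons upstream of 17356667 are not in these values.

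Each enzyme was then set against relatives of its family, whose preferred acceptors can differ. Fut7 held 94.0 ± 1.34% of the TPM of Fut7 and Fut4, the fucosyltransferases of leukocyte selectin ligands, with Fut4 at 1.15 ± 0.293 TPM (SD, n = 4). Of the TPM of the core 2 branching enzymes, Gcnt1 held 10.1 ± 2.75%, Gcnt4 89.0 ± 2.88% and Gcnt3 0.943 ± 0.701%. These are shares of a low total, since Gcnt4 had 4.05 ± 0.438 TPM and Gcnt3 12 fragments in all. St3gal4 held 22.5 ± 1.01% of the TPM of 5 sialyltransferase genes, behind St3gal1 at 42.1 ± 1.08% and St3gal2 at 29.6 ± 1.36%. Selplg exceeded the mean of Fut7, Gcnt1 and St3gal4 by 4.36, 4.40, 4.36 and 4.62 on the log2(TPM + 1) scale. The mean difference was 4.44 ± 0.12, above 0 in 4 of 4 libraries (exact sign-flip permutation p = 0.13, the smallest possible). The enzyme mean was taken over log2 values, so the near-silent Gcnt1, at 0.471 TPM, pulled it down. Selplg averaged 274 TPM, against 72.7 TPM for St3gal4 and 18.0 TPM for Fut7.

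The wider set of selectin ligand glycosylation genes was broadly expressed. Of 23 listed genes, 20 had a mean of at least 1 TPM and 15 of at least 10, with a median of 25.2 TPM. Over all 21764 protein-coding genes, 10383 and 7868 reached these levels. The list was chosen with earlier results of these data known. The galactosyltransferase gene B4galt1 had 219.7 ± 16.5 TPM, and Gfus, whose product completes the synthesis of GDP-fucose, 151 ± 9.78 TPM. St3gal1 and St3gal2, whose enzymes sialylate O-glycans, had 136 ± 6.18 and 96.0 ± 9.19 TPM. Chst4, a sulfotransferase of high endothelial venules, had no fragment in any library.

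**Figure D3:**
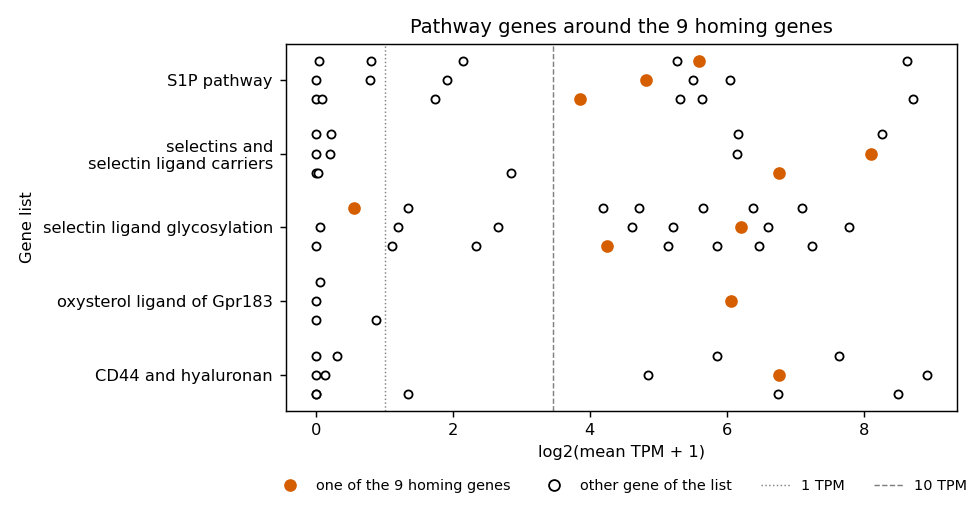
Mean level over 4 libraries, as log2(mean TPM + 1), of the genes in 5 pathway lists, with the 9 homing genes filled and vertical offsets within a list only for legibility. Gcnt1 lies left of the dotted line at 1 TPM, while Gpr183 stands alone right of it in its list.

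Gpr183 was expressed in every library, while the enzyme genes listed for its ligand were each under a mean of 1 TPM. Gpr183 (ENSMUSG00000051212.7; chromosome 14, 121952331 to 121965193, minus strand) reached 59.2, 73.9, 64.6 and 66.5 TPM and was highest in replicate 2. Ch25h, the hydroxylase that starts the synthesis of the ligand, had 5 fragments, 1 in replicate 2 and 4 in replicate 4. Cyp7b1, which completes the active ligand, and Cyp27a1 had none. Hsd3b7, which degrades the ligand, was detected in all 4 libraries, with 15 to 53 fragments and 0.827 ± 0.409 TPM (SD, n = 4).

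Each gene's spread between libraries was then set against genes of like abundance. Across the 9 genes, the coefficient of variation of TPM ranged from 4.61% for Fut7 and 4.81% for Cd69 to 17.8% for S1pr1 and 39.6% for Gcnt1, the gene with the fewest fragments. The median was 8.90% over the 9 and 8.07% over the 8 with a mean of at least 1 TPM, beside 8.10% over all protein-coding genes at that level. In edgeR's quasi-likelihood fit across all genes, all 9 passed the filter on low counts and 0 varied beyond such genes at an adjusted p (Benjamini-Hochberg) under 0.05. The background was 0.468% of the 12396 genes tested. At an unadjusted p under 0.05 the count was also 0 of 9, beside 5.33% of all genes tested. The smallest unadjusted p among the 9 was 0.143, for Cd44, and its adjusted p was 0.985 (edgeR). For S1pr1 the unadjusted p was 0.189 and for Gcnt1 0.197. A p that misses the threshold does not show that a gene's level was the same in all libraries. Apart from this test, S1pr4 and Selplg, 2 of the 9 genes, were lower in both libraries with Xist RNA than in both others, as were 28.6% of the 10095 protein-coding genes with at least 1 TPM in every library. With TPM over protein-coding genes alone it was the same 2 genes, beside 12.2%. On that scale Cd44 split the other way, at 122.7 and 118.4 TPM in the libraries with Xist RNA against 116.2 and 99.9 TPM. The share of all genes that split in this direction was not computed. Of the 50 pathway genes tested, the 9 included, 0 passed the adjusted threshold and 4, or 8.0%, had an unadjusted p under 0.05. These 4 were C1galt1, which makes the core on which O-glycan branches are built, Tpst2, which sulfates PSGL-1, Cd24a and the protease gene Mmp14, named after their values were seen. C1galt1 had 26.2, 36.0, 41.2 and 33.7 TPM, with an unadjusted p of 0.00731 and an adjusted p of 0.587 (edgeR).

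**Figure D4:**
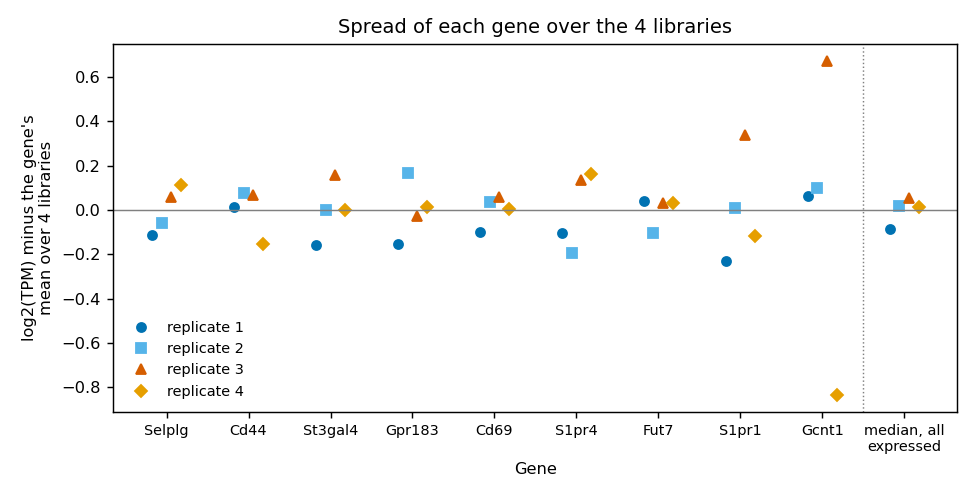
Deviation of each homing gene's log2 TPM from its mean over 4 libraries, with 1 point per library, and at the right the median over 10095 protein-coding genes with at least 1 TPM in every library. Replicate 3 is highest for S1pr1 and Gcnt1, and replicate 1 lies below 0 for 6 of the 9 genes, as does its median over all expressed genes.

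Replicate 1 was the lowest library for 5 of the 9 genes in TPM, and replicate 3 the highest for 4. The medians over the 9 genes of the deviation in log2 TPM were −0.10, 0.01, 0.07 and 0.01 in replicates 1 to 4, and those over all expressed genes −0.09, 0.02, 0.06 and 0.01. With TPM computed over protein-coding genes alone, the medians of the 9 were −0.01, −0.01, 0.03 and −0.03, and replicate 1 was the lowest for 1 gene. On that scale S1pr1 had 12.8, 13.97, 17.4 and 12.7 TPM, so its replicate 3 was again the highest. Together the 9 genes held 0.0816 to 0.0841% of the fragments of a library.

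For each homing gene, the protein-coding gene nearest to it in level over the 4 libraries was found by the root mean square difference of log2(TPM + 1) among 21755 candidates. Cd69 had the closest neighbour, Gypc, at 0.0128, and Gcnt1 the most distant, Fbxl22, at 0.0643. Gypc, a membrane sialoglycoprotein gene known from red cells, had 44.0, 48.2, 49.0 and 47.2 TPM, against 44.3, 48.7, 49.4 and 47.7 TPM for Cd69. For the rest the neighbours were Mrpl27 for Cd44 (0.0204), Dolk for Fut7 (0.0215), Glul for St3gal4 (0.0225), Fnta for Gpr183 (0.0290), Hnrnpul2 for Selplg (0.0334), Polm for S1pr4 (0.0341) and Ncoa7 for S1pr1 (0.0563).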

How the data were processed

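The deposited tables hold raw fragment counts per gene, not normalized. Per the file headers, the authors counted with featureCounts 1.4.6-p4 over exons of GENCODE mouse release 13, with read pairs mapped at both ends and strand setting 2, on mm10 per the labels. Reads mapping to several places or genes were not requested. The sources used here do not name the aligner. The labels name the assay total RNA-seq but link a polyA+ library protocol.

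From these counts and the deposited exon union lengths, CPM, TPM and exact 95% intervals were computed. Intervals, and the 3 fragments that a count of 0 allows (0.0777 to 0.0322 CPM from the shallowest to the deepest library), cover counting error only. Names came from GENCODE release 21 (50376 of 50600 IDs matched), with Gfus found under its synonym Tsta3. Variation between libraries was tested in R 4.3.3 with edgeR 4.0.16, on genes kept by filterByExpr and scaled by TMM. An intercept-only quasi-likelihood fit with a robust prior gave each gene's dispersion, its ratio to the prior was tested in the upper tail of F, and p-values were adjusted over all genes (Benjamini-Hochberg). DESeq2 1.42.0 supplied size factors as an alternative. The test was checked on simulated counts. Within-library differences were tested with exact two-sided sign flips, 16 patterns in all. No pair of libraries was a duplicate (chi-square over degrees of freedom 12.2 to 137).

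The 9 genes, the pathway lists and the markers were chosen with earlier results of these data known. Genes named beyond the 9 are the 4 most abundant of each pathway list, those with no fragment, the relatives of the 9 in 5 gene families and the nearest gene to each; others are said to be named after their values were seen, and 1 gene that this rule names is not reported here. Promoter windows came from RefSeq (GRCm38.p6).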

Additional observations from a re-analysis of the deposited data

Results flagged for a closer look

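Fut7 was singled out because 1 library lay far from the other 3. Replicate 2 had 16.7 TPM, against 18.3 to 18.4 TPM in the other libraries, and its gap to the nearest of them was 0.938 of the whole range, above Dixon's 95% critical value for 4 samples. The range itself was narrow, with a coefficient of variation of 4.61%, and the counting error of Fut7 in replicate 2, where it had the fewest fragments, alone comes to a coefficient of variation of 4.37%. Of 20 sets of 4 libraries examined this way, 1 exceeded the critical value, and chance singles out about 1 in 20. With TPM over protein-coding genes alone, Fut7 had 20.9, 17.5, 19.0 and 19.0 TPM, and replicate 1 was then apart as well.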

How the results depend on the processing

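Of 116 recomputed values behind the comparisons, 114 kept their direction and, where tested, their side of the threshold, or for levels stayed within 1 SD and for counts within 1.5 times. Many of these could not have failed. Leaving out 1 of 4 libraries cannot shift a mean by 1 SD, nor reverse a difference with the same sign in all 4. The count of 114 is therefore not a measure of stability. Sizes still moved: without length scaling (CPM), S1pr1 minus Cd69 was −2.83, S1pr1 minus S1pr4 −0.63, Selplg minus Cd44 0.68 and Selplg minus the enzyme mean 4.92, and the last was 4.93 with a pseudocount of 0.1. With TPM over protein-coding genes alone, mean levels moved by more than 1 SD for Cd69, to 50.4 TPM, and Fut7, to 19.1 TPM. Again in CPM, Cd69 stood above St3gal4, and the shares within families, chosen after seeing the data, moved for S1pr4 to 46.8%, Fut7 to 90.1%, St3gal4 to 14.8%, Selplg to 29.2% and Cd44 to 18.2%. Leaving out each library in turn gave 6 to 7 neighbouring pairs beyond their spread and 0 of the 9 genes called as varying. Without replicate 2, Cd44 alone had an unadjusted p under 0.05, at 0.0374 (adjusted p = 0.797, edgeR). S1pr1 minus Cd69 ran from −1.85 to −1.72 and S1pr1 minus S1pr4 from −1.04 to −0.88 over these omissions. Over all genes, the count called as varying was 58 in the main analysis, 59 with DESeq2 size factors, 110 of 21459 without the count filter, 36 without the robust prior, and 37, 69, 40 and 55 without replicates 1, 2, 3 and 4. The causes were not tested. No paired analysis was possible because the 4 libraries form a single group. Depth limits Gcnt1, with 31 to 55 fragments per library, and genes listed with no fragment.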
